A study of Mus musculus with 6 samples.

Results

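The genes described here are the insulin-like growth factor (IGF) axis with its imprinted neighbour H19: H19, Igf2, Igf1, Igf1r, Igf2r, Igfbp2, Igfbp3, Igfbp4, Igfbp5 and Igfbp6. They were chosen by symbol, matched to the Ensembl identifiers of the count files, and are 10 of the 37991 genes counted. All 10 passed the filter on low counts. The libraries came from C2C12, an immortalised mouse myoblast line of C3H origin that fuses into myotubes when serum is withdrawn. All cells carried a lentivirus expressing a short hairpin RNA, directed at luciferase in the control (shCtrl) or at Kap1 (shKap1), the gene also called Trim28. Proliferating myoblasts in fetal calf serum (MB) gave 2 control and 2 knockdown libraries. Cells kept for 48 hours in horse serum with insulin, transferrin and selenium (MT) gave 1 control and 1 knockdown library. The RNA was polyadenylated and cytoplasmic. The sources used here do not give whether transduced cells were a clone or a pool.

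IGF1 and IGF2 are secreted ligands that signal through the receptor tyrosine kinase IGF1R, and myoblasts make IGF2 as an autocrine signal when they differentiate. IGF2R, the cation-independent mannose 6-phosphate receptor, takes IGF2 up for degradation, and the IGF binding proteins (IGFBPs) hold ligands outside the cell and can block or aid their access to the receptor. H19 is a spliced noncoding RNA expressed from the maternal chromosome, and Igf2, its neighbour, is expressed from the paternal chromosome under a shared imprinting control region. KAP1 is a corepressor that zinc finger proteins such as ZFP57 bring to imprinting control regions, where it helps to keep methylation in place. Insulin, an ingredient of the MT medium, acts on the insulin receptor and, at high dose, also on IGF1R.

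Levels are given as CPM, the count of a gene scaled to a common library size. The libraries held 36247530 to 49839994 counts on genes, and 3 counts correspond to 0.0602 to 0.0828 CPM. Trim28, the knocked-down gene, was at 596 and 428 CPM in the MB control libraries, 150 and 102 CPM in the MB knockdown libraries, and 393 against 114 CPM in MT. The myoblast genes Myod1 and Des were detected in all 6 libraries, at 3.44 to 239 CPM and 303 to 1244 CPM. Replicate 2 of both MB groups stood apart from replicate 1, by amounts given with each gene. File names of MB replicate 1, control and knockdown alike, and of the MT libraries share a mark absent from those of MB replicate 2, and the sources used here do not give its meaning. Tests were therefore made in an edgeR quasi-likelihood fit with a mean per group and in the same fit with a term for this mark. For many genes only the value from the fit with the term is printed. The fit with group means alone called 0 genes in each contrast. In the second fit MT is in effect set against MB replicate 1, since the mark goes with both. The labels do not say that the MB replicates were separate cultures, so p-values measure the spread between these libraries, which may be technical. With 1 library per arm, values in MT have no replicate check, and their tests borrow the spread of the MB libraries. With group means that spread includes the step between MB replicates. With the mark term it is only what remains after that step is taken out. For knockdown in MT the SE of Igfbp5 was 3.78 with group means and 0.290 with the term, and that of H19 2.23 and 0.201. The smaller errors therefore leave out a replicate step of the size seen in MB.

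H19 was an abundant transcript in these cells and, per kilobase of annotated exon, the member with the highest level in control MT. Its CPM was 199 and 1769.5 in the MB control libraries, 213 and 2740.1 in the MB knockdown libraries, 8703 in the MT control and 2352 in its knockdown counterpart. Replicate 2 was high and replicate 1 low in both MB groups, so that the groups overlapped, and the MT knockdown library lay inside the MB range. Among all genes H19 ranked 4 by CPM in MT control, with 0.846% of the counts, and 962 in MB control replicate 1, with 0.0196%.

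H19 is the host of a microRNA, and Igf2 hosts another, whose mature sequences are shown because their precursors lie inside these genes. They are RNA sequences from RefSeq (GRCm38.p6), written 5′ to 3′, with the seed, bases 2 to 8, in capitals. No 2 of the 4 share a seed.
miR-675-5p: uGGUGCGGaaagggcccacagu
miR-675-3p: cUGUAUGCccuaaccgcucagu
miR-483-5p: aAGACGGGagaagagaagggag
miR-483-3p: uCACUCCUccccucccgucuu
The miR-675 arms lie on the minus strand at chr7:142577112-142577133 and chr7:142577078-142577099, within an exon of 3 of the 7 annotated H19 transcripts. The count tables hold 0 counts for Mir675 in all 6 libraries, where reads from the host exon may have been counted for H19 or as ambiguous. The miR-483 arms lie at chr7:142654968-142654989 and chr7:142654932-142654952, in no exon of the 9 annotated Igf2 transcripts, and Mir483 had 9 counts, all of them in MT control. Libraries of polyadenylated RNA do not measure mature microRNAs.

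Igf2 was the more abundant ligand and covered a wider range of levels than H19 or Igf1. H19 lies at chr7:142575529-142578143 and Igf2 at chr7:142650766-142666816 in GRCm38, both on the minus strand and 72.6 kb apart. The CPM of Igf2 was 2.61 and 21.6 in the MB controls, 7.81 and 107 in the MB knockdowns, 1056 in the MT control and 153 in its knockdown counterpart. Each knockdown MB library was above the control library of its own number, yet the groups overlapped, and both MT libraries were above all 4 MB libraries. Igf2 ranked 91 among all genes in MT control.

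Igf1, at chr10:87858265-87937042, was by far the scarcer ligand. Its CPM was 0.29 and 1.54 in the MB controls, 2.79 and 1.30 in the MB knockdowns, 52.2 in the MT control and 18.98 in its knockdown counterpart. The MB values rest on 12, 61, 132 and 56 counts and the MT values on 2529 and 735 counts. MB levels were all low and overlapped between the groups, and both MT libraries stood above them. Per kilobase of annotated exon, the level of Igf2 was 15.6 and 24.3 times that of Igf1 in the MB controls, 4.85 and 143 times in the MB knockdowns, 35.0 times in the MT control and 14.0 times in its knockdown counterpart.

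In MT control, H19 and both ligands were higher than in the MB controls, and the sizes of the differences depended on the MB replicate. H19 was 43.8 times its level in replicate 1 and 4.92 times that in replicate 2. The corresponding folds were 404 and 49.0 for Igf2 and 180 and 33.9 for Igf1. With the mark term, H19 rose by 5.58 (log2, SE 0.192, adjusted p 1.18e-07) and Igf2 by 8.95 (SE 0.246, adjusted p 1.33e-06) in edgeR. Igf1 was at 5.89 (SE 1.46, adjusted p 0.15) and did not pass in edgeR, while DESeq2 called it higher with the mark term and with group means. With group means alone the log2 differences were 3.14, 6.45 and 5.83 with edgeR adjusted p of 0.349, 0.156 and 0.0827, none past the threshold of 0.05.

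**Figure D1:**
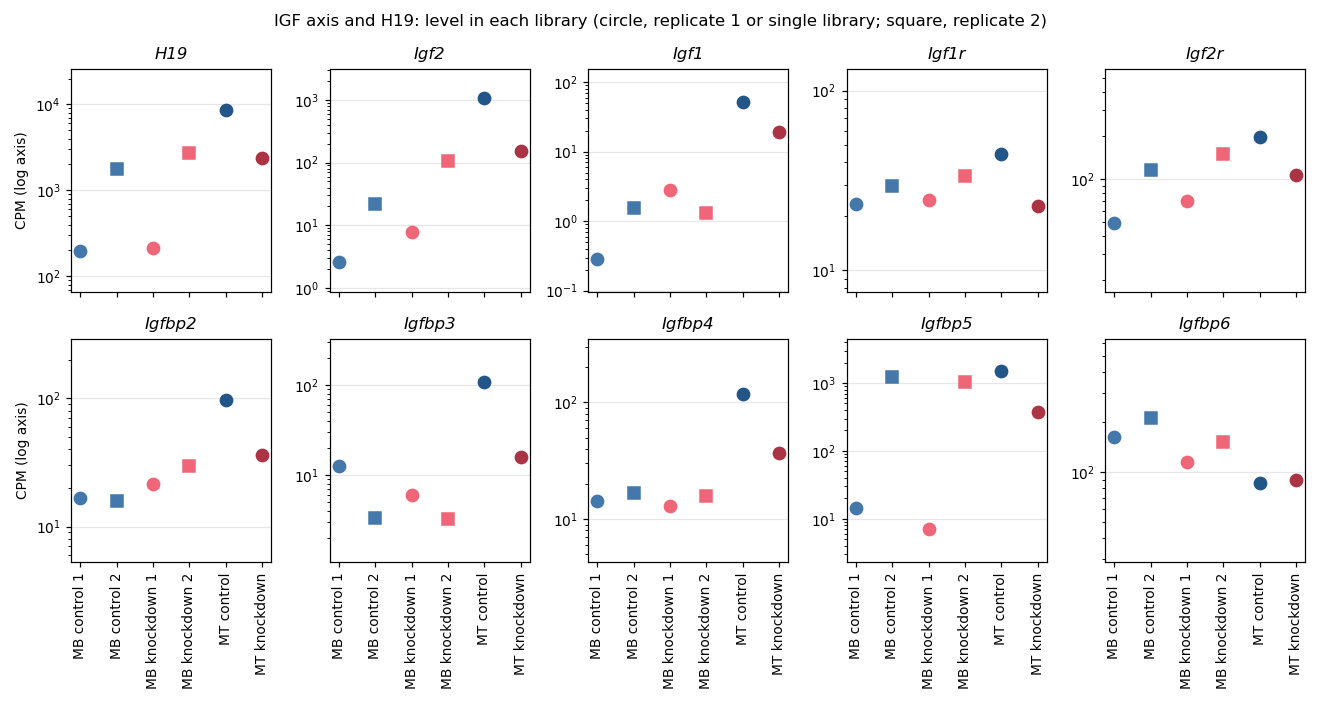
CPM of each of the 10 genes on a log axis, 1 panel per gene and 1 point per library, with MB to the left of MT and control before knockdown within each stage, circles for replicate 1 or the single library and squares for replicate 2. Igfbp5 spans 6.99 to 1504 CPM with both MB replicate 2 libraries near MT control, while Igf1r stays between 22.8 and 44.2 CPM.

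Kap1 knockdown in MB left Igf2 higher than control within each numbered pair, at 2.99-fold in replicate 1 and 4.98-fold in replicate 2. In edgeR with the mark term Igf2 rose by 2.04 (log2, SE 0.183, adjusted p 0.00369). With group means alone it was at 2.25 (p 0.225, adjusted p 1), and without knockdown replicate 2 it was at -0.63, below control. H19 was at 1.07-fold and 1.55-fold control in the numbered pairs, and at 0.37 (log2, SE 0.139, adjusted p 0.219) with the mark term. Igf1 was 9.60-fold control in replicate 1 and 0.844-fold in replicate 2, opposite directions that gave 1.20 (log2, SE 1.30, adjusted p 0.775).

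In MT the same 3 genes were lower in the knockdown library than in the control library. H19 was 3.70-fold lower and fell by 1.89 (log2, SE 0.201, adjusted p 0.000345), and Igf2 was 6.90-fold lower and fell by 2.79 (SE 0.231, adjusted p 0.000549), by edgeR with the mark term. Igf1 was at -1.46 (log2, SE 1.21, adjusted p 0.570). With group means alone no member passed in MT, with edgeR adjusted p of 0.473 to 0.983 over the 10 genes. The size of the MT difference is the same in both fits, since the mark does not differ between the MT libraries. Only its error changes.

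The difference between the knockdown effects in MT and in MB was tested itself, as an interaction. With the mark term it was -2.26 (log2, SE 0.243, adjusted p 0.00069) for H19 and -4.83 (SE 0.296, adjusted p 0.000292) for Igf2. For Igf1 it was -2.66 (adjusted p 0.56). In edgeR with group means alone every member had an adjusted p of 0.927 or more for this difference, while DESeq2 with group means called it for Igfbp2 and Igfbp4. Leaving out MB knockdown replicate 2 put H19 at 0.32 instead of a negative value in edgeR with group means.

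**Figure D2:**
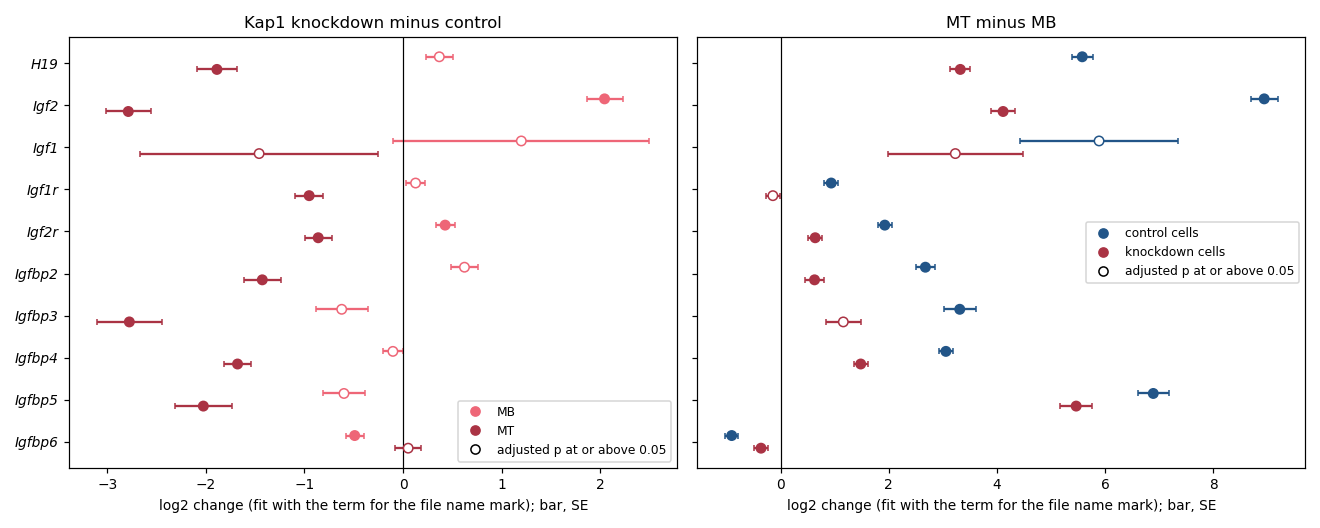
Log2 change of each gene in the edgeR fit with the mark term, with its SE as a bar, for Kap1 knockdown against control in MB and MT (left) and for MT against MB in control and knockdown cells (right), filled where the adjusted p was under 0.05. In MT the knockdown points lie below 0 for 9 of the 10 genes, 8 of them filled, against 11.2% of all genes called lower. In MB the filled points are Igf2 and Igf2r above 0 and Igfbp6 below, against 2.5% and 1.34% of all genes.

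The balance of H19 to Igf2 differed by arm and stage. Per kilobase of annotated exon, the level of H19 was 177 and 191 times that of Igf2 in the MB controls and 63.5 and 59.3 times in the MB knockdowns. It was 19.2 times that of Igf2 in the MT control and 35.7 times in its knockdown counterpart. Unlike the levels of either gene, this ratio was close between the MB replicates of each group, and the MB groups did not overlap. The ratio in knockdown was below control in MB and above it in MT. How often ratios of other gene pairs do not overlap was not tested. Among single genes, 13.5% had MB knockdown above control without overlap and 13.1% below it. Reads where Igf2os, described next, overlaps Igf2 may have been counted for either gene or left out as ambiguous. The Igf2 values may be too high or too low to that extent.

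Reads on the Igf2 locus also include an antisense gene. Igf2os, which is annotated across Igf2 on the opposite strand, had 1 and 4 counts in the MB controls, 3 and 350 counts in the MB knockdowns, 258 in the MT control and 114 in its knockdown counterpart. The highest count was that of MB knockdown replicate 2, although Igf2 itself was at its highest in MT control. Since the sources used here give no strand setting for the counting, reads of Igf2os and Igf2 cannot be told apart where they overlap, and both values are uncertain to that extent.

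Of the receptors, Igf1r covered a narrower range of levels than Igf2r over the 6 libraries. Igf1r, the signalling receptor, at chr7:67952827-68233668, was at 23.5 and 29.6 CPM in the MB controls and 24.8 and 33.5 CPM in the MB knockdowns. It was at 44.2 CPM in the MT control and 22.8 CPM in its knockdown counterpart, the latter below all 4 MB libraries. Igf2r, the clearance receptor, at chr17:12682406-12769664, was at 49.6 and 116 CPM in the MB controls, 70.5 and 148 CPM in the MB knockdowns, 194 CPM in the MT control and 107 CPM in its knockdown counterpart. It was the higher of the receptors throughout. Per kilobase of exon the level of Igf2r was 3.80 to 8.45 times that of Igf1r.

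Both receptors were higher in MT control than in either MB control library, by 1.88-fold and 1.49-fold for Igf1r and by 3.91-fold and 1.67-fold for Igf2r. With the mark term Igf1r rose by 0.94 (log2, edgeR adjusted p 0.000217) and Igf2r by 1.93 (SE 0.125, adjusted p 1.47e-06) in control cells. In MT, knockdown was lower than control, and by the same fit Igf1r fell by 0.95 (SE 0.139, adjusted p 0.0011) and Igf2r by 0.86 (SE 0.135, adjusted p 0.00167). In MB, Igf2r was 1.42-fold and 1.27-fold control in the numbered pairs and rose by 0.43 (log2, SE 0.0957, adjusted p 0.0373). That call is lost in DESeq2 with the same term, which called 2% of all genes in MB. With group means alone Igf2r was at 0.40 (p 0.521), and it turned to -0.23 without MB knockdown replicate 2 and to -0.09 without MB control replicate 1. Igf1r did not pass in MB, at 0.13 (adjusted p 0.574).

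Airn, the noncoding RNA made antisense to Igf2r and known to silence it on the paternal chromosome, was at 1.11 and 3.10 CPM in the MB controls and 1.39 and 2.88 CPM in the MB knockdowns. It was at 16.7 CPM in the MT control and 3.12 CPM in its knockdown counterpart. In MT it fell with knockdown, by 2.42 (log2, edgeR adjusted p 0.000241 with the mark term), as Igf2r did. Airn overlaps Igf2r, so its counts carry the same doubt about strand as those of Igf2os.

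Among the binding proteins, Igfbp5 had the widest range and Igfbp6 the opposite course to most others. Igfbp5, a binding protein made by differentiating myoblasts, lies at chr1:72857932-72874884, tail to tail with Igfbp2 at chr1:72824503-72852474 and 5.46 kb from it. Its CPM was 14.6 and 1239 in the MB controls, 6.99 and 1045 in the MB knockdowns, 1504 in the MT control and 369 in its knockdown counterpart. Replicate 2 was 85.0 times replicate 1 in the MB controls and 149 times in the MB knockdowns, a larger step than in any comparison of arms. The rank of Igfbp5 among all genes by CPM was 67 in MB control replicate 2 and 53 in MT control.

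Promoter windows of 300 bases are shown for 3 members with differing courses: Igfbp5, which was at its highest in MT control and in MB replicate 2, Igf1, which was high in MT, and Igfbp6, which was lower in MT than in MB. They come from RefSeq (GRCm38.p6), run from 250 bases before the annotated start to 50 after it, and are written 5′ to 3′ on the strand of the gene. Capitals mark CANNTG, the E-box to which MyoD-family factors bind, CAGCTG being the form they favour.
Igfbp5, chr1:72874816-72875115, minus strand: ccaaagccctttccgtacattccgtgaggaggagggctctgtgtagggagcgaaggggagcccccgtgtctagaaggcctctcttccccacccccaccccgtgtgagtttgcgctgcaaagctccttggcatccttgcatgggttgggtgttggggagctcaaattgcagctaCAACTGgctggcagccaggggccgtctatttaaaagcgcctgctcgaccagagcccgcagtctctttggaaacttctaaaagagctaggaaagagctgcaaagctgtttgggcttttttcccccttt
Igf1, chr10:87860861-87861160, plus strand: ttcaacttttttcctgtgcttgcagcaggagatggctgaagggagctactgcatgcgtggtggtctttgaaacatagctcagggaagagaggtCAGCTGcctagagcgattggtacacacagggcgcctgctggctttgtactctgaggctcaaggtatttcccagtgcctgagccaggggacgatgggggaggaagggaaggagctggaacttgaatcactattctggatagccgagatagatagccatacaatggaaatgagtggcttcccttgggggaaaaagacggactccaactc
Igfbp6, chr15:102143936-102144235, plus strand: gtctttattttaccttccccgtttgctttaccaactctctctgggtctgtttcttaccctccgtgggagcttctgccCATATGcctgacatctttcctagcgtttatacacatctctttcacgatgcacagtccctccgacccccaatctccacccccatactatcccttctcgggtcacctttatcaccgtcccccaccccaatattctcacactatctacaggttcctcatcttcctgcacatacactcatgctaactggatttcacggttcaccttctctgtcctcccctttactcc
Windows were found for 9 of the 10 members, 13 windows in all, and H19 had none in the table used. The letters of CANNTG, searched on both strands, occur in 72.3% of all 32851 windows, and each of the 3 shown holds 1. CAGCTG, which is a special case of CANNTG, occurs in 16.3% of windows and, among the members, only in that of Igf1. TATAAA, on both strands, occurs in 13.6% of windows and among the members in those of Igfbp4 and Igfbp6, and the MEF2 motif occurs in 3.19% of windows and in none of the members'. The window of Igf2r holds 4 CANNTG matches and that of Igf1r none. These matches are descriptions of the windows, not binding sites.

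Igfbp2, Igfbp3 and Igfbp4 were each at their highest in MT control. Igfbp2 was at 16.8 and 15.9 CPM in the MB controls, 21.3 and 29.6 CPM in the MB knockdowns, 97.7 CPM in the MT control and 36.3 CPM in its knockdown counterpart. Igfbp3, the main carrier of IGFs in serum, at chr11:7206086-7213923, was at 12.5 and 3.36 CPM in the MB controls, 6.08 and 3.29 CPM in the MB knockdowns, 109 CPM in the MT control and 16.0 CPM in its knockdown counterpart. Igfbp4, an inhibitor of IGF action that is cleaved by the protease PAPP-A, at chr11:99041244-99054392, was at 14.2 and 16.6 CPM in the MB controls, 13.0 and 15.8 CPM in the MB knockdowns, 117 CPM in the MT control and 36.6 CPM in its knockdown counterpart. For these 3 genes both MT libraries stood above all 4 MB libraries. The share of all genes that did so was not counted. Within an arm, MT was above both MB libraries for 40.4% of all genes in control and 38.8% in knockdown cells.

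Igfbp6, which binds IGF2 in preference to IGF1, lies at chr15:102144362-102149511. It was at 161 and 213 CPM in the MB controls, 115 and 152 CPM in the MB knockdowns, 86.1 CPM in the MT control and 89.3 CPM in its knockdown counterpart. Both MB knockdown libraries were below both MB control libraries, and both MT libraries were below all of MB. Igfbp6 was the member with the smallest difference between the MT libraries.

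In control cells the binding proteins except Igfbp6 were higher in MT. By edgeR with the mark term Igfbp2 rose by 2.68 (log2, adjusted p 1.23e-05), Igfbp3 by 3.31 (SE 0.296, adjusted p 0.00124), Igfbp4 by 3.06 (SE 0.126, adjusted p 5.65e-08) and Igfbp5 by 6.89 (SE 0.290, adjusted p 6.13e-05). Igfbp6 fell by 0.90 (SE 0.125, adjusted p 0.00025). For Igfbp5 the figure depends on the MB replicate, MT control being 103 times MB replicate 1 but 1.21 times replicate 2. For Igfbp3 the folds were 8.74 and 32.6, for Igfbp4 8.24 and 7.05, and for Igfbp2 5.83 and 6.12. With group means alone Igfbp5 was at 1.26 (edgeR adjusted p 0.824), while Igfbp4 and Igfbp2 came nearest to the threshold, at 2.93 (adjusted p 0.0522) and 2.58 (adjusted p 0.0533).

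In MT, knockdown was lower than control for 4 of the 5 binding proteins. With the mark term Igfbp3 fell by 2.78 (log2, SE 0.329, edgeR adjusted p 0.00811), Igfbp5 by 2.03 (SE 0.290, adjusted p 0.0113), Igfbp4 by 1.68 (SE 0.135, adjusted p 2.02e-05) and Igfbp2 by 1.43 (SE 0.189, adjusted p 0.00173). Igfbp6 was at 0.05 (SE 0.131, adjusted p 0.825). In MB, Igfbp6 was the binding protein that passed: it fell by 0.49 (SE 0.0922, adjusted p 0.0165), at 0.710-fold and 0.714-fold control in the numbered pairs. Igfbp2 was at 0.62 (SE 0.138, adjusted p 0.0546) and Igfbp5 at -0.60 (SE 0.211, adjusted p 0.259). With group means alone Igfbp6 was at -0.49 (p 0.0977) and Igfbp2 at 0.64 (p 0.0337), both with an edgeR adjusted p of 1. In the interaction Igfbp2 (-2.05, adjusted p 0.0015), Igfbp4 (-1.58, adjusted p 0.00027) and Igfbp3 (-2.15, adjusted p 0.0484) passed with the mark term. Igfbp5 (-1.43, adjusted p 0.0793) and Igfbp6 (0.54, adjusted p 0.0593) did not. In the same fit without the filter on low counts, Igfbp3 did not pass and Igfbp6 did.

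The sum and the makeup of the binding protein RNA both differed between libraries. Summed per kilobase of exon, the 5 genes were at 164 and 411 CPM per kb in the MB controls, 121 and 331 in the MB knockdowns, 442 in the MT control and 175 in its knockdown counterpart. Igfbp6 made up 88.6% and 46.5% of this sum in the MB controls, 85.4% and 41.2% in the MB knockdowns, 17.5% in MT control and 45.9% in MT knockdown. Igfbp5 made up 1.48% and 50.2%, 0.965% and 52.5%, 56.6% and 35.2% in the same order. The shares differed between MB replicates far more than between MB arms, and in MT knockdown Igfbp6 had the larger share and in MT control Igfbp5.

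**Figure D3:**
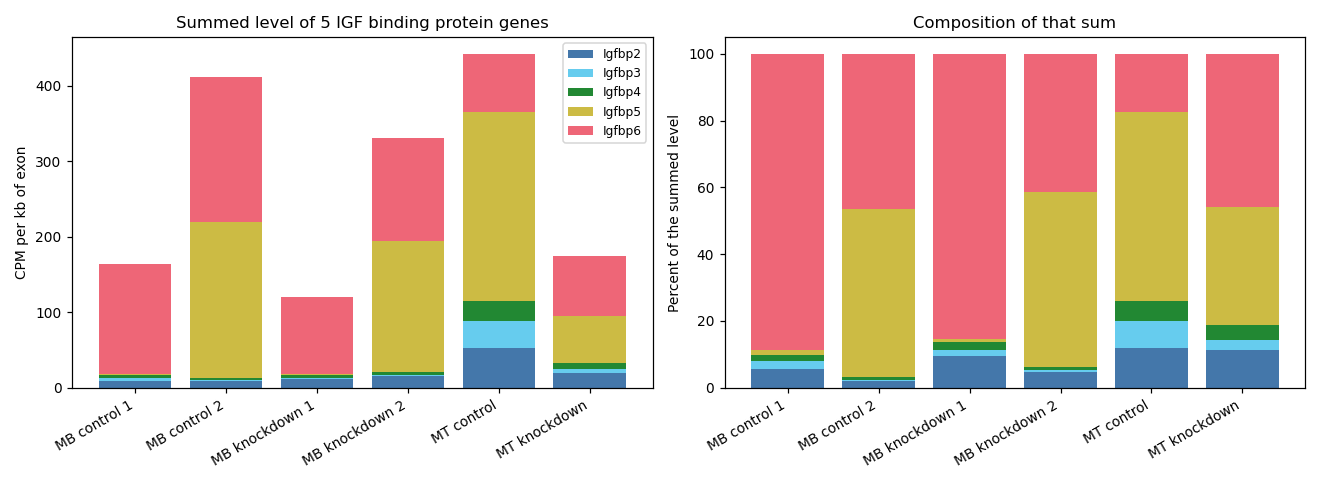
Level of the 5 binding protein genes in CPM per kilobase of exon, stacked by gene (left), and the percent of that sum held by each gene (right), 1 bar per library. Igfbp6 holds 88.6% and 85.4% of the bars of MB replicate 1, and Igfbp5 holds the largest share in both MB replicate 2 libraries and in MT control.

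Over the 10 genes, knockdown in MB was called with the mark term for 3, of which Igf2 and Igf2r rose and Igfbp6 fell. Among all 16472 genes tested 3.84% were called, 2.5% higher and 1.34% lower. In the fit with group means edgeR called 0 of the 10 genes and 0% of all genes. At an unadjusted p under 0.05 it had 1 of the 10 and 2.76% of all, and DESeq2 with group means called 0 of the 10 and 0.316% of all. Without overlap between the MB groups, Igfbp2 was above control and Igfbp6 below it, 1 gene each way, against 13.5% and 13.1% of all genes. The member median was 0.25 (log2) with the mark term, against -0.01 over all genes.

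Knockdown in MT was called with the mark term for 8 of the 10 genes, all lower, against 20.3% of all genes called (9.09% higher, 11.2% lower). The 2 not called were Igf1 and Igfbp6. The member median was -1.57 (log2) and that of all genes 0.02. With group means edgeR called 0 of the 10 genes and 0% of all genes, with 3 of the 10 and 8.4% of all at an unadjusted p under 0.05. DESeq2 with group means called 2, Igfbp2 and Igfbp4, both lower, against 2.23% of all genes.

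The step from MB to MT in control cells was called with the mark term for 9 of the 10 genes, 8 higher and 1 lower, against 44.9% of all genes (22.3% higher, 22.6% lower). In knockdown cells 6 rose and 1 fell, against 33.1% of all (16.6% higher, 16.5% lower). The 6 were H19 (3.32, log2), Igf2 (4.12), Igf2r (0.64), Igfbp2 (0.63), Igfbp4 (1.48) and Igfbp5 (5.47), and Igfbp6 fell by 0.36. DESeq2 with the mark term lost the calls of Igfbp2 and Igfbp6 and called Igfbp3, and edgeR with total library size and the mark term also lost that of Igfbp6. With the mark term all of these are in effect comparisons with MB replicate 1. For H19, Igf2r and Igfbp5 the MT knockdown library lay below MB knockdown replicate 2. Without MB knockdown replicate 1 these 3 were below 0 with group means, H19 at -0.22 and Igf2r at -0.47. Igf2 was 19.6 times its level in MB knockdown replicate 1 and 1.42 times that in replicate 2, and at 1.41 (log2, edgeR adjusted p 0.735) with group means. The folds were 2.82 and 2.32 for Igfbp4 and 1.70 and 1.22 for Igfbp2. By levels alone, 9 of 10 genes in control cells were above both MB libraries in MT, against 40.4% of all genes, and Igfbp6 was below both, against 40.6%. In knockdown cells 5 were above both, against 38.8%, and Igf1r and Igfbp6 below both, against 36.5%. With group means edgeR called 0 of the 10 genes and 0% of all in either arm. At an unadjusted p under 0.05 it had 6 of the 10 and 25.3% of all in control cells, and 2 of the 10 and 15.3% of all in knockdown cells. DESeq2 with group means called 6 members in control cells, against 14.5% of all genes. Igf2, Igf1, Igfbp2, Igfbp3 and Igfbp4 were higher and Igfbp6 lower. In knockdown cells it called 2, Igf1 and Igfbp4, both higher, against 5.12% of all genes.

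The interaction was called with the mark term for 7 of the 10 genes, all negative, against 10.5% of all genes called (3.82% positive, 6.63% negative). They were H19, Igf2, Igf1r (-1.08, SE 0.170, edgeR adjusted p 0.00302), Igf2r (-1.29, SE 0.166, adjusted p 0.000913), Igfbp2, Igfbp3 and Igfbp4. With no filter and the mark term, the call of Igfbp3 was lost and Igfbp6 was called positive. Total library size with the mark term also called Igfbp6 positive. With group means edgeR called 0 of the 10 and 0% of all genes, with 3 of the 10 and 5.01% of all at an unadjusted p under 0.05. DESeq2 with group means called 2, Igfbp2 and Igfbp4, against 1.01% of all.

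Markers of myogenic progress were also measured. Myog, a transcription factor of early differentiation, was at 1.28 and 33.8 CPM in the MB controls, 0.676 and 14.3 CPM in the MB knockdowns, 818 CPM in the MT control and 28.2 CPM in its knockdown counterpart. Myog fell with knockdown in MB in edgeR with the mark term, by 1.18 (log2, adjusted p 0.00123), where Igf2 and Igf2r rose, and fell by 4.86 in MT, where both of these fell. With group means Myog was at -1.23 in MB (edgeR adjusted p 1), and at 2.54 without MB control replicate 2. The 10 muscle differentiation genes examined summed to 626 to 1063 CPM in MB, to 9139 CPM in MT control and to 1052 CPM in MT knockdown, and with the mark term 7 of the 10 fell with knockdown in MT and none rose, against 11.2% of all genes lower. The MT knockdown library was within the MB range for this sum, as it was for H19, Igf2r and Igfbp5. The sum is weighted to the more abundant genes. Gene by gene, with the mark term, 5 of the 10 muscle genes rose from MB to MT in knockdown cells and none fell. Among all genes 16.6% were higher. The median of the 10 was 2.48 (log2), and 1.03 with group means, where 8 were above 0 and edgeR called none. Replicate 2 of MB was above replicate 1 for Myog by 26.4-fold in control and 21.1-fold in knockdown, and for Igf2 by 8.26-fold and 13.8-fold. The 10 cell cycle genes summed to 2590 to 3402 CPM in MB, 1314 CPM in the MT control and 1419 CPM in its knockdown counterpart. In these bulk libraries fewer differentiating cells and less RNA of a gene per cell cannot be told apart.

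Markers of other cell types were low or moved otherwise. The 7 smooth muscle genes, several of which myoblasts also express, summed to 3321 and 1423 CPM in the MB controls, 6232 and 2109 CPM in the MB knockdowns, 5748 CPM in the MT control and 5535 CPM in its knockdown counterpart. With the mark term 5 of the 6 tested rose with knockdown in MB and 4 in MT, with none lower, against 2.5% and 9.09% of all genes higher. The osteoblast and chondrocyte genes summed to 50.7 to 88.9 CPM, and the adipocyte genes to 14.1 to 50.2 CPM with 3 or 4 of the 7 at 0. The blood and endothelial genes summed to under 5 CPM in each library, with 2 to 4 of the 8 at 0. The part of any of these in the values above was not tested.

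The genes around H19 and Igf2 on chromosome 7 include the fast troponin genes of muscle. Of 12 neighbours listed, 9 were tested, and with the mark term 7 rose and none fell from MB to MT in control cells, against 22.3% of all genes higher. With knockdown in MT 4 fell and none rose, against 11.2% of all genes lower. The tested neighbour nearest to H19 was the noncoding gene Nctc1, with 0 counts in both MB control libraries, 0 and 1 in the MB knockdowns, 50 in the MT control and 1 in its knockdown counterpart, and it was called higher from MB to MT in control cells and lower with knockdown in MT. Its counts are too few for a fitted fold to be given. Tnni2, fast troponin I, was at 0.363 and 5.30 CPM in the MB controls, 308 CPM in the MT control and 3.38 CPM in its knockdown counterpart, and fell by 6.51 (log2) with knockdown in MT. Tnnt3, fast troponin T, was at 585 CPM in the MT control and 17.0 CPM in its knockdown counterpart and fell by 5.11. In MB the knockdown call among the neighbours was that of Lsp1, which rose by 0.45 (adjusted p 0.0336).

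**Figure D4:**
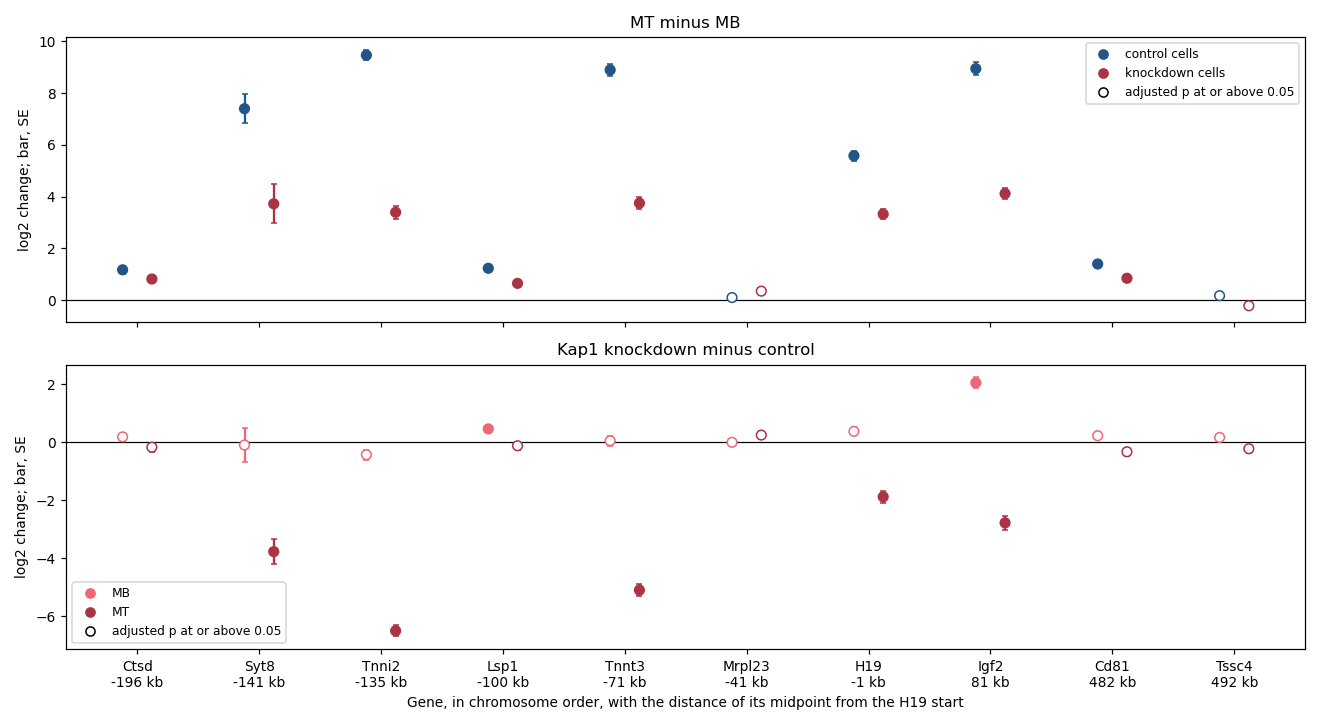
Log2 change, with its SE as a bar, of H19, Igf2 and 8 neighbours in chromosome order, for MT against MB (top) and Kap1 knockdown against control (bottom), in the edgeR fit with the mark term and filled where the adjusted p was under 0.05. Distances are from the H19 start in kb. Tnni2, Tnnt3, Syt8, H19 and Igf2 are below 0 and filled with knockdown in MT, and Mrpl23 is filled in none of the 4 comparisons. Nctc1 and Igf2os, which lie closer to H19 or across Igf2, are not drawn because a group had too few counts.

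Of 46 other imprinted genes listed, 28 were tested. In MB 4 rose with knockdown in the fit with the mark term and none fell, against 2.5% of all genes higher and 1.34% lower. In MT 2 rose and 7 fell, against 9.09% of all genes higher, a share near that of the list, and 11.2% lower. Mest, a paternally expressed gene, was at 3.48 and 14.9 CPM in the MB controls, 6.08 and 32.4 CPM in the MB knockdowns, 93.0 CPM in the MT control and 42.5 CPM in its knockdown counterpart. It followed the course of Igf2: with knockdown it rose by 0.99 (log2, edgeR adjusted p 0.00175) in MB and fell by 1.13 (adjusted p 0.000522) in MT, and its interaction was -2.12 (adjusted p 8.13e-05). With group means and without MB knockdown replicate 2, Mest was at -0.59 in MB. Peg10 rose by 0.85 (adjusted p 0.00349) in MB. In MT, Cdkn1c, a maternally expressed cell cycle inhibitor, fell by 3.91 (adjusted p 0.00016), and Dcn, the proteoglycan decorin, by 1.27 (adjusted p 0.000285). The list's median was 0.25 in MB and 0.06 in MT.

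Of 17 factors that set or keep imprints, 16 were tested. The knockdown call in MB was that of Trim28 itself, lower by 2.03 (log2, edgeR adjusted p 2.64e-05), against 3.84% of all genes called. In MT 1 rose and 4 fell, against 9.09% and 11.2% of all genes, and 1 of the 4 was Trim28, which fell by 1.78 (adjusted p 1.7e-05). Zfp57, whose product brings KAP1 to imprinting control regions, was at 19.3 to 23.2 CPM in MB and at 28.1 CPM in the MT control and 33.8 CPM in its knockdown counterpart.

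Upstream of the receptors are proteases of the binding proteins and regulators of IGF release, which may aid or hinder it. Of 12 listed, 11 were tested, and with the mark term 8 rose and 1 fell from MB to MT in control cells, against 22.3% and 22.6% of all genes. With knockdown in MT 6 fell, none rose and 5 were not called, against 11.2% of all genes lower. Mmp9, a gelatinase, was at 47.2 CPM in the MT control and 4.26 CPM in its knockdown counterpart and fell by 3.47 (log2, adjusted p 4.34e-06). Adam12, a protease of fusing myoblasts that cleaves IGFBP-3 and IGFBP-5, was at 101 and 21.9 CPM and fell by 2.20 (adjusted p 4.79e-06). In MB, Pappa, the protease of IGFBP-4, was at 23.8 and 12.2 CPM in the controls against 37.5 and 18.6 CPM in the knockdowns and rose by 0.63 (adjusted p 0.0125).

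Downstream of the receptors, among the insulin receptor substrates and adaptors, 13 of 15 were tested, and with the mark term Irs1 rose by 0.56 (log2, adjusted p 0.0104) with knockdown in MB and Socs3 fell by 0.54 (adjusted p 0.0307) in MT, with no other call in either, against 3.84% and 20.3% of all genes called. All 27 PI3K, AKT and mTOR genes were tested. Deptor, an inhibitor of mTOR, was the call in MB, lower by 0.73 (adjusted p 0.00262), 1 of 27 against 3.84% of all genes called. In MT 9 fell and none rose, against 11.2% of all genes lower. These included Deptor (-1.20, adjusted p 0.000235), Inppl1 (-1.26, adjusted p 0.000153), which encodes the lipid phosphatase SHIP2, and Akt2 (-1.15, adjusted p 0.000348). Akt2, the AKT isoform most tied to insulin action, was at 105 to 119 CPM in MB, 271 CPM in the MT control and 122 CPM in its knockdown counterpart. The 4 genes for IGF2 mRNA-binding proteins and insulin-degrading enzyme had no knockdown call in either stage.

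Of 13 further ligands, receptors and binding proteins of the family and transcripts at these loci, 5 were tested. With the mark term the knockdown call in MB was that of Igf2os, higher, whose counts are given above, and in MT Igfbp7 rose and Airn fell. Insr, the insulin receptor, was at 36.8 to 46.4 CPM in MB, 45.3 CPM in the MT control and 39.2 CPM in its knockdown counterpart. Igfbp7, a low-affinity relative of the IGFBPs, was at 213 CPM in the MT control and 308 CPM in its knockdown counterpart and rose by 0.53 (log2, edgeR adjusted p 0.0372 with the mark term), opposite in direction to Igfbp2, Igfbp3, Igfbp4 and Igfbp5.

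Set side by side per kilobase of exon, the leading gene depended on the library. In MB replicate 1 Igfbp6 was highest, at 145 CPM per kb in control and 103 in knockdown, above H19 at 80.8 and 86.7. In the other 4 libraries H19 was highest, at 719 to 3538 CPM per kb. Igf1 was lowest in all 4 MB libraries, at 0.0293 to 0.281 CPM per kb, and Igf1r was lowest in both MT libraries, at 2.63 and 1.36 CPM per kb. In MT control the binding proteins other than Igfbp6 lay at 26.5 to 250.4 CPM per kb and Igf2 at 185.

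The genes with a course most like that of 3 members over the 6 libraries were found by Pearson's r of log2(CPM + 1) among 9733 genes with a mean of at least 10 CPM. For H19 they were Narf (0.997), Sike1 (0.996) and Fam173a (0.993). For Igf2 they were Tmem208 (0.999), Man1c1 (0.997) and Cpeb4 (0.996), and for Igfbp5 Slc9a9 (0.996), Dnajb9 (0.994) and Gpt2 (0.992). The likeness is of shape and not of size, since Tmem208 ran from 30.8 to 37.2 CPM and Narf from 20.3 to 61.1 CPM. The named genes were picked as the highest among 9733, over 6 libraries that share stage and replicate differences. Values this high can arise from that choice alone, so they are a description and no test.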

How the data were processed

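Polyadenylated cytoplasmic RNA was sequenced from 6 C2C12 libraries, grouped and numbered as their titles say. The authors deposited whole-number read counts per Ensembl gene and library. Per the submitters' processing notes, alignment used TopHat2 2.0.11 on mm9 and counting used HTSeq. The sources used here do not give the annotation release, counting mode or strand setting. Lines naming no gene were left out: no-feature reads were 5.18% to 8.07% and ambiguous reads 2.81% to 2.93%. Reads that fall on overlapping genes may be among the latter.

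Symbols came from a GENCODE M21 (GRCm38) table, which matched 32919 of 37991 identifiers, and all 10 members matched 1 identifier each. Exon-union lengths and coordinates are of GRCm38, a later build than that of the alignment. Tests used the edgeR quasi-likelihood method (edgeR 4.0.16, R 4.3.3, TMM scaling, filterByExpr, 16472 genes) in 1 fit of all 6 libraries with a mean per group. P-values were Benjamini-Hochberg adjusted over all genes of a contrast, with a threshold of 0.05. The same fit with a term for the mark in the file names had a common biological coefficient of variation of 9.74% and 1 residual degree of freedom, against 32.9% and 2 without it. The SE is the log2 change divided by the square root of its F statistic. Folds between a pair of libraries are ratios of CPM, and log2 differences within a pair had 0.1 CPM added to each value. The script was tested on simulated data. Alternatives were RLE size factors without the mark term, total library size, no filter and DESeq2 1.42.0 with and without it, single pairs of libraries, and leaving out each of the 4 MB libraries. The MT libraries, 1 per arm, were not left out.

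The members, gene lists and the use of the mark term were chosen with earlier results of these data known. Named genes were the members in all contrasts, up to 3 genes of each list and contrast with the smallest p in the fit with the mark term, the 3 genes most like H19, Igf2 and Igfbp5, and Trim28, Myog, Myod1 and Mki67, of which not all are printed. Des, Insr, Zfp57, Igf2os, Nctc1 and the microRNA hosts are named beside them as descriptions, chosen after their values were seen.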

Additional observations from a re-analysis of the deposited data

Results flagged for a closer look

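By a test of the difference itself, in edgeR with the mark term, the effect of Kap1 knockdown differed between MT and MB for 7 of the 10 genes. Among all genes 10.5% were called. For Igf2, knockdown was above control within each numbered MB pair, though the MB groups overlapped, and was below control in MT. The MT effect minus the MB effect was -4.83 (log2) for Igf2 and -2.26 for H19. Of the receptors it was -1.29 for Igf2r and -1.08 for Igf1r. Of the binding proteins it was -2.15 for Igfbp3, -2.05 for Igfbp2 and -1.58 for Igfbp4. The call of Igfbp3 was lost with no filter and the mark term. Igfbp6 was called positive there and with total library size and the mark term. With group means edgeR called none of these differences, with 3 of the 10 genes and 5.01% of all at an unadjusted p under 0.05. DESeq2 with group means called those of Igfbp2 and Igfbp4, against 1.01% of all genes. Without MB knockdown replicate 2, H19 turned to 0.32 in edgeR with group means. Each of the 7 differences rests on 1 MT library per arm.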

How the results depend on the processing

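The replicate block, here the term for the file name mark, which in MB coincides with the replicate number, decides how many genes are called. Without it edgeR called 0 genes in the 5 contrasts. With it the counts were 632 for knockdown in MB, 3344 for knockdown in MT, 7398 for MT against MB in control cells, 5446 in knockdown cells and 1722 for the interaction. In the same order they were 509, 3715, 7384, 5241 and 1764 with total library size and the block, 1046, 3740, 7534, 5856 and 2245 with no filter and the block, and 329, 1542, 4291, 2918 and 958 in DESeq2 with the block. DESeq2 without it gave 52, 368, 2384, 843 and 166. Without the block, control cells gave 78 with RLE size factors and 582 with no filter, and knockdown cells gave 2 with no filter. Leaving out 1 MB library gave 0 to 141 in control cells, 136 without MB knockdown replicate 1 and 141 without MB knockdown replicate 2, and 0 elsewhere. The differences of replicate 2 minus replicate 1 correlated at 0.785 between the MB groups across 16472 genes, which are not independent replicates, and with 2 pairs this does not show that the numbers pair the samples. With the block, a fit without 1 MB library has no residual degrees of freedom and was not made.

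Directions of the member values turned as follows, and the cause was not tested. For MT against MB in knockdown cells, Igf2r was at -0.03 with group means, and at 0.64 with the block, 0.64 with DESeq2 and the block, 0.72 with total library size and the block, 0.59 with no filter and the block, 0.071 with total library size and 0.60 against replicate 1 alone. Igfbp5 was at -0.51 with group means, and at 5.47, 5.50, 5.55 and 5.42 under the same 4 settings with the block and 5.70 against replicate 1 alone. H19 was at -0.22 against replicate 2 alone. Igf1 with knockdown in MB was at -0.23 within the replicate 2 pair. Leaving out 1 MB library gave, with knockdown in MB, -2.21 to 2.89 for H19, -0.63 to 4.46 for Igf2, -0.10 to 0.34 for Igf1r, -0.23 to 1.14 for Igf2r, -1.41 to 0.48 for Igfbp3, -0.25 to 0.034 for Igfbp4, -6.49 to 5.17 for Igfbp5, -4.69 to 2.54 for Myog and -0.59 to 2.46 for Mest. For MT against MB in knockdown cells it gave -0.22 to 3.46 for H19, -0.47 to 0.60 for Igf2r and -1.498 to 5.72 for Igfbp5, and for the interaction -4.79 to 0.32 for H19 and -7.21 to 4.46 for Igfbp5. The knockdown differences in MT kept their direction under all settings tried, but these settings are no check on them. Each is 1 library against 1, and leaving out an MB library or adding the mark term removes neither.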
